A study of Mus musculus with 2 samples.

Results

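Nucleotide synthesis and one-carbon metabolism was examined through 33 named genes: 13 of purine synthesis and salvage, 11 of pyrimidine and thymidylate synthesis with the nucleoside diphosphate kinases, and 9 of serine synthesis and the folate cycle. All 33 had a probe among the 20618 genes with a symbol on the array, and all 33 were measured on both arrays, out of 10521 genes measured there. The members were listed by pathway, with earlier results of these data known. The cells were mouse leukaemia cells of the B-cell acute lymphoblastic type (B-ALL), taken from bone marrow at 8 weeks of age per the labels. They carried SoNar, a fluorescent protein sensor of the cytosolic NADH/NAD+ balance, and its emission ratio under 2 excitation lines was used to sort a SoNar-high population and a SoNar-low population. One-colour Agilent arrays received the total RNA, 1 array for each population. The sample titles call the same samples N-myc-high and N-myc-low, the labels do not say how the leukaemia was induced or whether animals were pooled, and they name no strain, genotype or drug for either group. With 1 array per population there is no replicate check and no p-value, and scan session and population cannot be told apart.

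Cells build purine rings on phosphoribosyl pyrophosphate, which the PRPS enzymes make from ribose phosphate, while the pyrimidine ring is made first and joined to that sugar afterwards. Serine made from a glycolytic intermediate hands carbon units to folate, and folate passes them on to the purine ring and to thymidylate. Several of these reactions reduce NAD+ or feed electrons to the respiratory chain, and dividing lymphoblasts use the whole network to supply DNA and RNA synthesis.

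On the SoNar-high array 44.8% of non-control spots were well above background, against 72.9% on the SoNar-low array. Signals below are background-subtracted intensity units of the scanner software, and the 75th percentile over probes was 436 units for the SoNar-high array and 470 units for the SoNar-low array. A difference is the SoNar-high minus the SoNar-low log2 value after division by that percentile, averaged over a gene's measured probes. The median of the 10521 genes lay at 0.22, so differences are given relative to this median gene unless said otherwise; such values do not move when only the scaling factor changes. Among 197 probes printed as 10 spots, a difference between 1 spot of each array had a median SD of 0.15, an error between spots that covers neither animals nor sorts. Of 12 B-lineage markers 9 were measured, from -0.30 to 0.76 with a median of 0.19, and their summed scaled signal was 127 in SoNar-high and 94.7 in SoNar-low; Igll1, Rag1 and Rag2 stayed under the background call on both arrays. Markers of other marrow cells lay below the median gene: neutrophil (11 of 12 measured genes below it, median -0.61, summed signal 55.3 against 63.9), monocyte and macrophage (3 of 4, -0.92, 1.69 against 2.78), T and NK (4 of 5, -1.29, 6.17 against 7.37), erythroid (4 of 5, -0.64, 69.6 against 47.3) and stromal or endothelial (4 of 4, -1.02, 2.05 against 3.50), each sum with the SoNar-high array first. The erythroid sum thus went the other way from its median, with Hemgn its brightest gene (22791 units in SoNar-high, 14153 in SoNar-low). The median gene was not subtracted from the sums. Relative to it their log2 ratios were 0.20 for B-lineage, 0.33 for erythroid and -0.99 to -0.43 for the other lists. Some markers were dim, such as Gzma at 62.3 units in SoNar-high. Over all genes the dimmest of 3 equal bins by level had a median of -0.24. The part of level in the markers was not tested. The part of these other cells in the values of the 33 genes was not tested, and in sorted bulk RNA fewer cells of a type and less RNA per cell cannot be told apart.

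With the scaling described above, and with the median gene not yet subtracted, no member differed by 2-fold between the arrays. At the 2-fold threshold on the differences before the median gene was subtracted, 0 of 33 members were higher on the SoNar-high array, where 2.4% of all genes were, and 0 were lower, where 4.39% of all genes were. The median member stood 0.08 above the median gene, with 18 members above it and 15 below, and it lay below the median gene under quantile normalization (-0.15), in the authors' series matrix (-0.13), under loess on the level (-0.06) and with a stricter filter on dim probes (-0.05). The members lay close together, with an interquartile range of 0.32, against 0.67 over all genes. Relative to the median gene 3 members (9.09%) were at least 1.5-fold higher, against a background of 7.46%, and 1 (3.03%) was at least 1.5-fold lower, against 15.8%. Ctps (0.62), Prps1 (0.62) and Mthfd2l (0.59) stood highest, and Tyms (-1.03) lay alone at the low end. Tyms was thus the 1 member at least 2-fold lower relative to the median gene, where 7.05% of genes were that low, and 0 members were at least 2-fold higher by that measure, where 0.665% were.

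The choice of scaling decided how many members passed a fixed fold. Before the median gene was subtracted, 7 members were at least 1.5-fold higher on the SoNar-high array (background 20.4%) and 1 was at least 1.5-fold lower (10.2%). Median scaling, which raised every gene, put 10 members past 2-fold upward, where 32.1% of all genes were, a share close to the members' own 30.3%. The 75th percentile over detected probes only, which lowered every gene, put Tyms past 2-fold downward, where 8.11% were. Mthfd2l passed 2-fold upward under quantile normalization (3.31% of all genes) and in the authors' series matrix (4.09%).

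**Figure D1:**
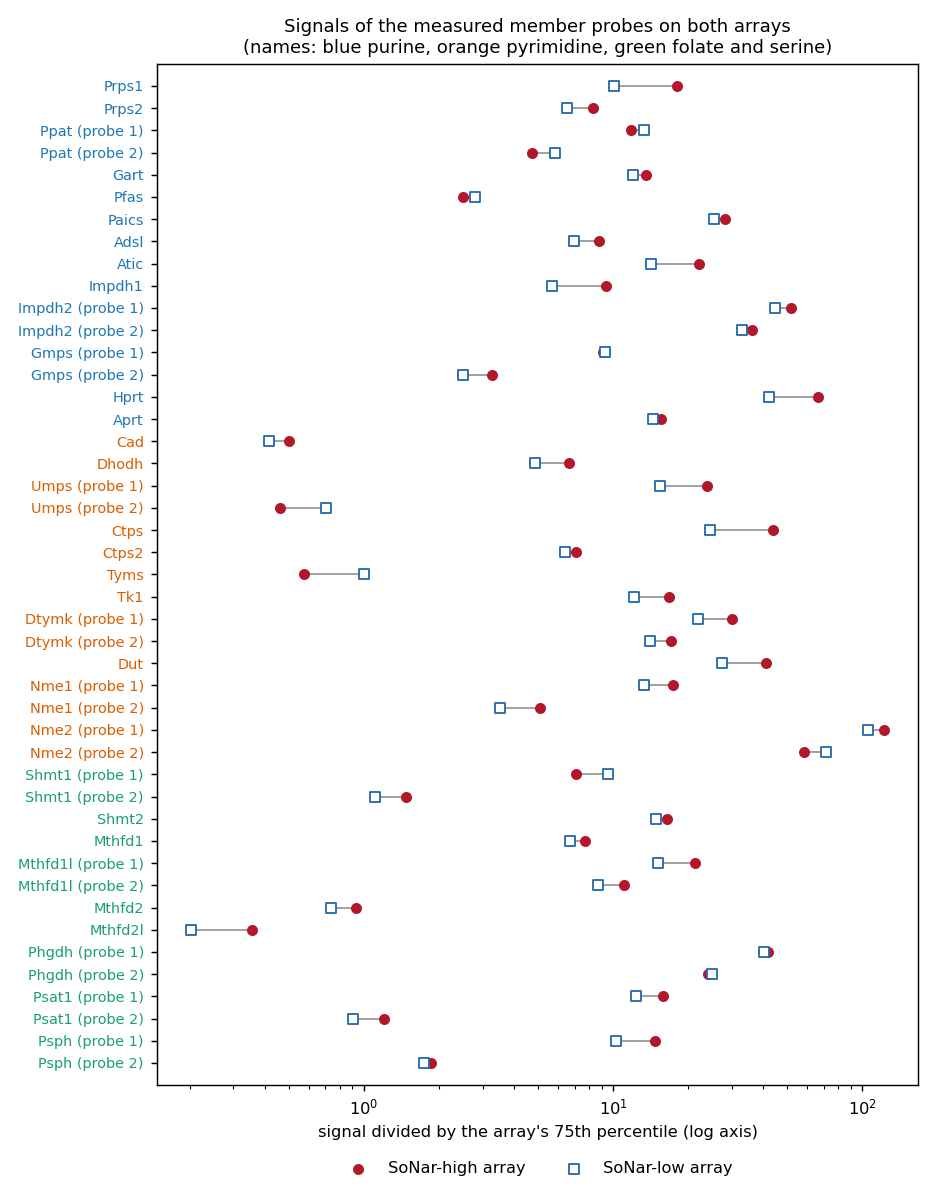
Signal of each measured member probe divided by its array's 75th percentile, on a log axis, with the SoNar-high array as filled circles and the SoNar-low array as open squares (1 array each). The circle lies right of the square for most probes, and Tyms, Ppat, Pfas, the second probes of Umps and Nme2 and the first probe of Shmt1 have it on the left, as have the first probe of Gmps and the second of Phgdh by a small margin. Levels of different probes cannot be compared.

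**Figure D2:**
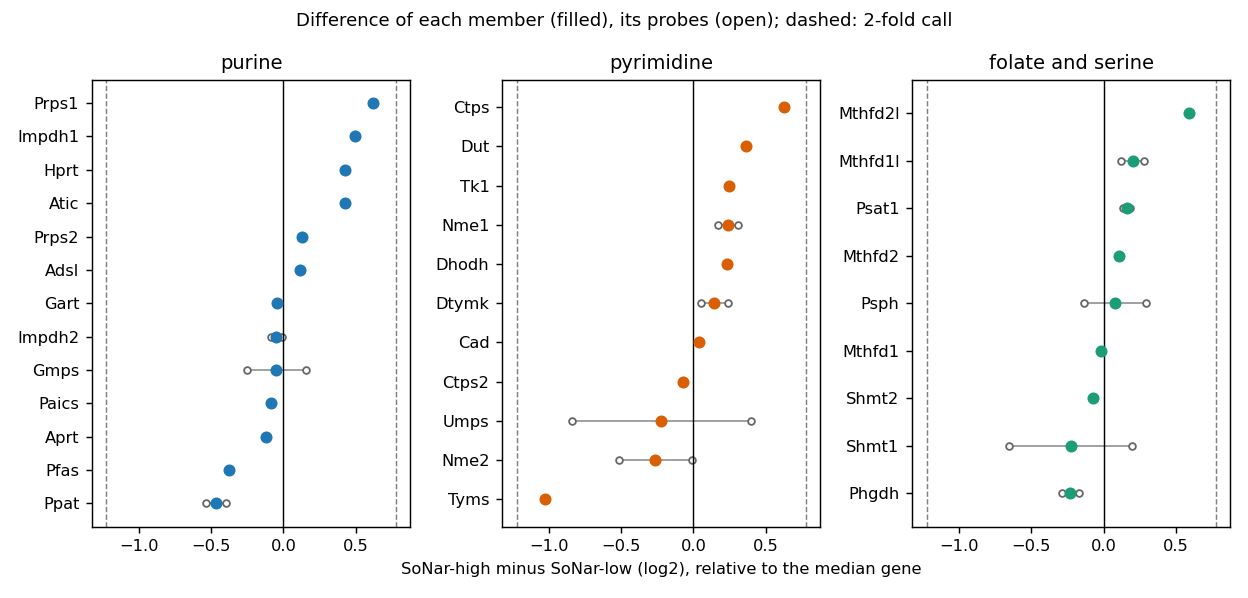
SoNar-high minus SoNar-low difference of each member in log2 units relative to the median gene (filled points), with its single probes as open points and dashed lines at a 2-fold difference before the median gene (0.22) was subtracted, so that the lines sit off centre on this axis. No filled point passes a dashed line, although Tyms (-1.03) is past 2-fold relative to the median gene, and the probes of Umps and of Shmt1 lie on opposite sides of the median gene.

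The level of the genes bears on these counts. All genes were split into 3 equal bins by mean level. The median difference was -0.24 in the dimmest bin, 0.02 in the middle bin and 0.16 in the brightest bin. Before the median gene was subtracted, 11.1%, 6.07% and 3.17% of the genes in these bins differed by at least 2-fold in either direction. Of the members 28 lay in the brightest bin, with a median of 0.10, 3 in the middle bin (Mthfd2, Pfas and Tyms) and 2 in the dimmest (Cad and Mthfd2l). The 28 bright members had a full range from -0.47 to 0.62. The interquartile range of all genes in their bin ran from -0.10 to 0.41. These are unlike measures, so the spreads cannot be compared. The backgrounds above are those of all genes, and the share past 2-fold was smaller among bright genes. The part of level in the members' counts and spread was not tested.

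**Figure D3:**
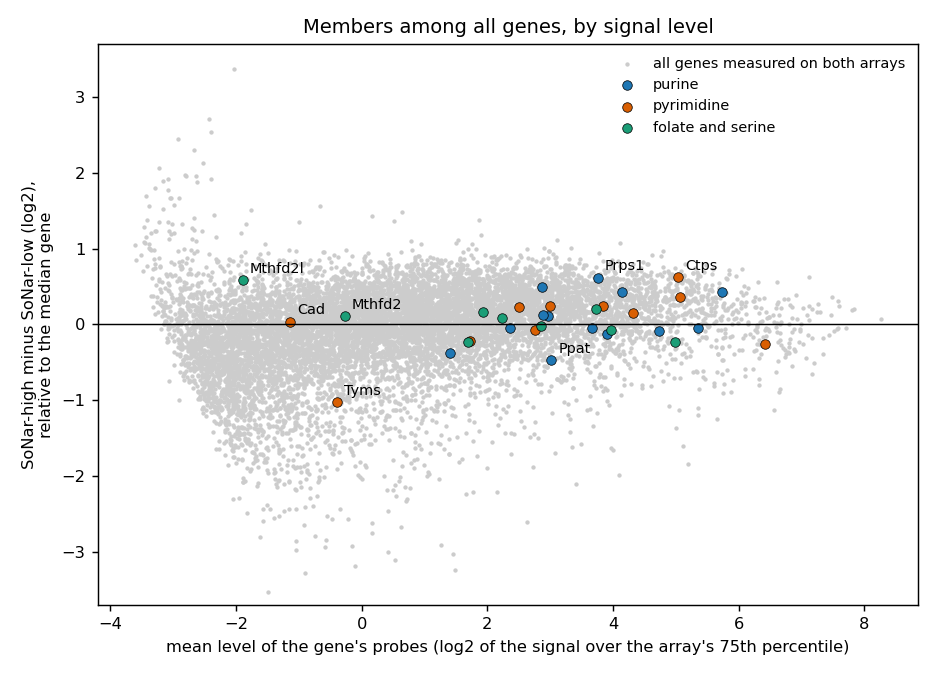
Difference of each gene relative to the median gene against the mean scaled level of its probes, both in log2 units, with the 33 members coloured by pathway over all 10521 genes in grey. Most members sit at high level within 0.62 of the median gene, while Tyms lies at -1.03.

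Purine synthesis was examined first. Prps1, which makes the activated ribose on which purines are built, gave 7401 units on the SoNar-high array and 4748 units on the SoNar-low array. That put it 0.62 above the median gene, above 93.7% of all genes, and above the median gene under all 11 processing alternatives. Its paralog Prps2 gave 3401 units on the SoNar-high array and 3066 units on the SoNar-low array, 0.13 above the median gene. The 2 members thus differed by 0.49. In the 4 alternatives that could move this gap it ran from 0.46 to 0.54.

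The 6 enzymes of the de novo purine route did not share a direction. Ppat, the amidotransferase that commits phosphoribosyl pyrophosphate to purines, gave 4813 and 1925 units by its 2 probes on the SoNar-high array, against 6238 and 2752 units on the SoNar-low array. Both probes were dimmer on the SoNar-high array (-0.40 and -0.54), and the mean of -0.47 was the lowest of the purine group. Gart, a trifunctional enzyme of the middle of the route, lay at -0.04 (5537 units in SoNar-high, 5627 in SoNar-low). Pfas, which adds an amide nitrogen, lay at -0.38 (1026 units in SoNar-high, 1314 in SoNar-low). Ppat and Pfas were below the median gene under all 11 alternatives. Paics, which carries out a carboxylation and the step after it, lay at -0.08 (11441 units in SoNar-high, 11944 in SoNar-low), and Adsl, which releases fumarate, at 0.11 (3602 units in SoNar-high, 3277 in SoNar-low). Atic, the bifunctional enzyme that closes the purine ring with a folate-borne carbon, had 9056 units in the SoNar-high population, against 6644 units in the SoNar-low population. It lay at 0.43, so that the last enzyme of the route stood 0.89 above the first, a gap of 0.74 to 0.92 under the alternatives. These were the highest and the lowest of the 6 genes, a pair not planned beforehand, so a wide gap follows from the choice. Of the 11 alternatives only 5 could move it.

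The guanylate branch and salvage followed. Impdh1 and Impdh2 encode the NAD+-dependent dehydrogenases that turn IMP towards GMP. Impdh1 gave 3843 units on the SoNar-high array and 2684 units on the SoNar-low array and lay at 0.50, above the median gene under all 11 alternatives. Impdh2, the isoform known to be raised in dividing lymphocytes, gave 21138 and 14781 units by its 2 probes in SoNar-high, against 20963 and 15444 units in SoNar-low. Its probes lay at -0.01 and -0.09, next to the median gene. Gmps, which aminates XMP to GMP, had a mean of -0.05 from probes at -0.25 and 0.15, and a further probe, detected on the SoNar-low array alone, was left out. Of the salvage enzymes, Hprt, which recycles hypoxanthine and guanine, was the best measured member because its probe was printed as 10 spots. Hprt gave 27270 ± 2034 units over 8 kept spots on the SoNar-high array and 19913 ± 556 units over 10 spots on the SoNar-low array (SD between spots of 1 array). Before scaling, the spots of the arrays did not overlap (lowest 23933 units in SoNar-high, highest 20718 in SoNar-low). Spots of 1 array carry the same RNA, so their spread covers neither animals nor sorts. The share of other repeat probes without overlap is not given here. Hprt lay at 0.43. Aprt, which recycles adenine, lay at -0.12 (6334 units in SoNar-high, 6788 in SoNar-low), so salvage had no common direction either.

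Pyrimidine synthesis gave a similar mixture. Cad, the trifunctional enzyme that starts the pyrimidine ring, was dim, with 204 units on the SoNar-high array and 196 units on the SoNar-low array, and lay at 0.04. Dhodh, which oxidises dihydroorotate at the inner mitochondrial membrane and passes the electrons to ubiquinone, gave 2716 units in SoNar-high and 2282 units in SoNar-low and lay at 0.23; it stayed above the median gene in 9 of 11 alternatives. Umps, which completes UMP, had probes that disagreed. Its bright probe gave 9708 units in SoNar-high and 7265 in SoNar-low (0.40), while its dim probe gave 188 units in SoNar-high and 332 in SoNar-low (-0.84), so the mean of -0.22 describes neither. The CTP synthase gene Ctps, whose human counterpart is known to be needed by proliferating lymphocytes, gave 17978 units on the SoNar-high array and 11503 units on the SoNar-low array. It lay at 0.62, above 93.8% of all genes and above the median gene under all 11 alternatives. Ctps2 gave 2913 units in SoNar-high and 3024 in SoNar-low by its 1 measured probe and lay at -0.08, below the median gene under all 11.

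Genes of thymidylate supply differed most among themselves. Tyms, which methylates dUMP to dTMP with a folate carbon, gave 236 units on the SoNar-high array and 473 units on the SoNar-low array by its 1 probe. Its difference of -1.03 relative to the median gene was -0.80 before that subtraction, and it lay between -1.07 and -0.83 under the 10 alternatives that measured it. By contrast Tk1, the thymidine kinase that makes the same dTMP by salvage, gave 6859 units in SoNar-high and 5711 in SoNar-low (0.24). Dut, which removes dUTP and yields the substrate of Tyms, gave 16740 units in SoNar-high and 12818 in SoNar-low (0.36), above the median gene under all 11 alternatives. Dtymk, the kinase of dTMP, had probes at 0.24 and 0.05. Thus Tyms, the lowest of all members, stood 1.27 below Tk1, and 0.90 to 1.27 below it under the alternatives, of which only 4 could move this gap. This pair was not planned beforehand. The other 3 of the 4 genes of this group stood above the median gene. Tyms rested on 1 spot per array, and no second probe was there to check it.

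The nucleoside diphosphate kinases Nme1 and Nme2 phosphorylate purine and pyrimidine diphosphates alike. Nme1 had probes at 0.17 (7135 units in SoNar-high, 6252 in SoNar-low) and 0.31 (2081 in SoNar-high, 1654 in SoNar-low), a mean of 0.24. Nme2 had a probe at -0.01 (49805 units in SoNar-high, 49429 in SoNar-low) and another at -0.51 (23797 in SoNar-high, 33488 in SoNar-low), a mean of -0.26. These neighbouring genes are related in sequence, so signal may be shared between their probes. This could not be checked without probe sequences, and both values are uncertain.

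Serine synthesis and the folate cycle varied least. Phgdh, the NAD+-dependent dehydrogenase that commits a glycolytic intermediate to serine, gave 17080 and 9776 units by its 2 probes on the SoNar-high array, against 18966 and 11757 units on the SoNar-low array. Both probes lay below the median gene (-0.17 and -0.29), and the mean of -0.23 was below it under all 11 alternatives. Psat1, the aminotransferase of the next step, had probes at 0.13 and 0.18 (6477 and 491 units in SoNar-high, 5823 and 425 in SoNar-low), a mean of 0.16 that lay at -0.03 with the stricter filter on dim probes. Psph, the phosphatase that releases serine, had probes on both sides at 0.29 and -0.14. The 3 genes of this short route thus ranged from -0.23 to 0.16, and 2 of them stood above the median gene.

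Folate enzymes of the cytosol and of mitochondria overlapped in their differences. Shmt1, the cytosolic hydroxymethyltransferase that moves a carbon unit from serine to folate, had a bright probe at -0.65 (2891 units in SoNar-high, 4473 in SoNar-low) and a dim one at 0.20 (606 in SoNar-high, 520 in SoNar-low). Mthfd1, the cytosolic trifunctional enzyme, lay at -0.02 (3161 units in SoNar-high, 3151 in SoNar-low). In mitochondria, Shmt2 lay at -0.07 (6706 units in SoNar-high, 6953 in SoNar-low) and Mthfd1l, which releases formate, at 0.20 with probes at 0.28 and 0.12. Mthfd2, a mitochondrial dehydrogenase that can use NAD+, was dim at 380 units in SoNar-high and 348 in SoNar-low and lay at 0.10. Its relative Mthfd2l gave 146 units in SoNar-high and 95.5 in SoNar-low, a difference of 0.59. Before the median gene was subtracted, Mthfd2l passed 2-fold in the series matrix and under quantile normalization. Relative to the median gene it lay at 1.06 in the series matrix and at 0.98 under quantile normalization. The median of the 4 mitochondrial genes (0.15) exceeded that of the 2 cytosolic genes (-0.12) by 0.27, and by 0.27 to 0.53 under the alternatives, but cytosolic Mthfd1 stood above mitochondrial Shmt2. This split was made after the values were seen, it rests on 6 genes, and the probes of Shmt1 disagreed by 0.85.

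Paralogs were then set side by side. Ctps exceeded Ctps2 by 0.70, Impdh1 exceeded Impdh2 by 0.54, Nme1 exceeded Nme2 by 0.50, and Prps1 exceeded Prps2 by 0.49. Mthfd2l exceeded Mthfd2 by 0.48, Mthfd1l exceeded Mthfd1 by 0.22 and Shmt2 exceeded Shmt1 by 0.15. A gap between genes cancels any change of scaling, so only 4 to 6 of the alternatives moved each of them. In those the Nme1 gap ran as low as 0.18, the Mthfd2l gap as low as 0.25 and the Shmt2 gap as low as 0.05. Between genes with 1 single-spot probe each, a gap carries the spot error of both differences, an SD of 0.21. Genes averaged over 2 probes, such as Mthfd1l and Shmt1, carry less of it. The Mthfd1l gap hardly exceeded 0.21 and the Shmt2 gap did not, and the probes of Shmt1 disagreed by 0.85.

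**Figure D4:**
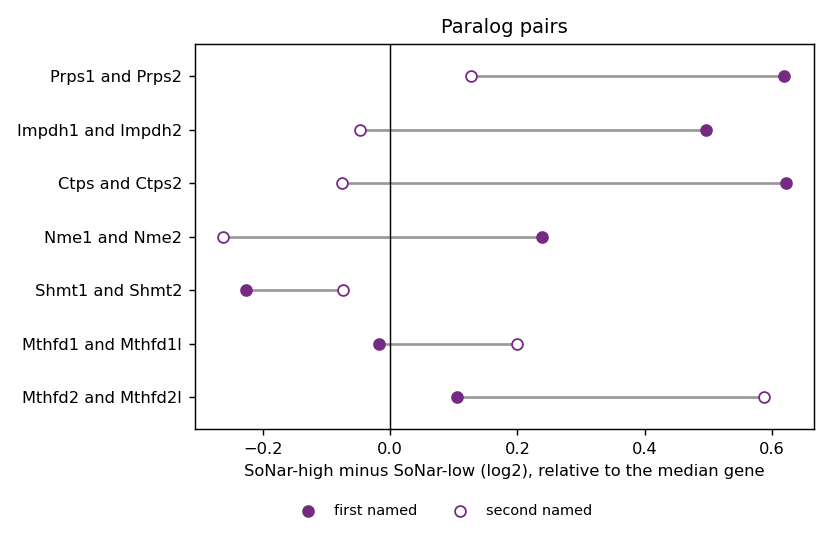
SoNar-high minus SoNar-low differences in log2 units relative to the median gene for 7 paralog pairs, with the first-named gene filled and the second open. Ctps, Impdh1, Nme1 and Prps1 lie right of their paralogs by 0.49 to 0.70.

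Between the pathways the differences were small. The purine median was -0.04, the pyrimidine median 0.14 and the median of folate and serine genes 0.08, each relative to the median gene. The purine median lay 0.19 below the pyrimidine median, and 0.08 to 0.28 below it under the alternatives, while the interquartile range within the purine group was 0.51 and within the pyrimidine group 0.39. The side of the median gene depended on the processing for all 3 groups: purine genes lay above it with no filter on dim probes (0.13) and with the background call from negative controls (0.04), pyrimidine genes lay below it under quantile normalization (-0.04) and in the series matrix (-0.02), and folate and serine genes lay below it in 5 alternatives. The 6 members that use NAD+ or NADP+ (Phgdh, Impdh1, Impdh2, Mthfd1, Mthfd2 and Mthfd2l), grouped after their values were seen because the sort was made on NADH, had a median of 0.04 and ranged from -0.23 to 0.59, with 3 above and 3 below the median gene.

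**Figure D5:**
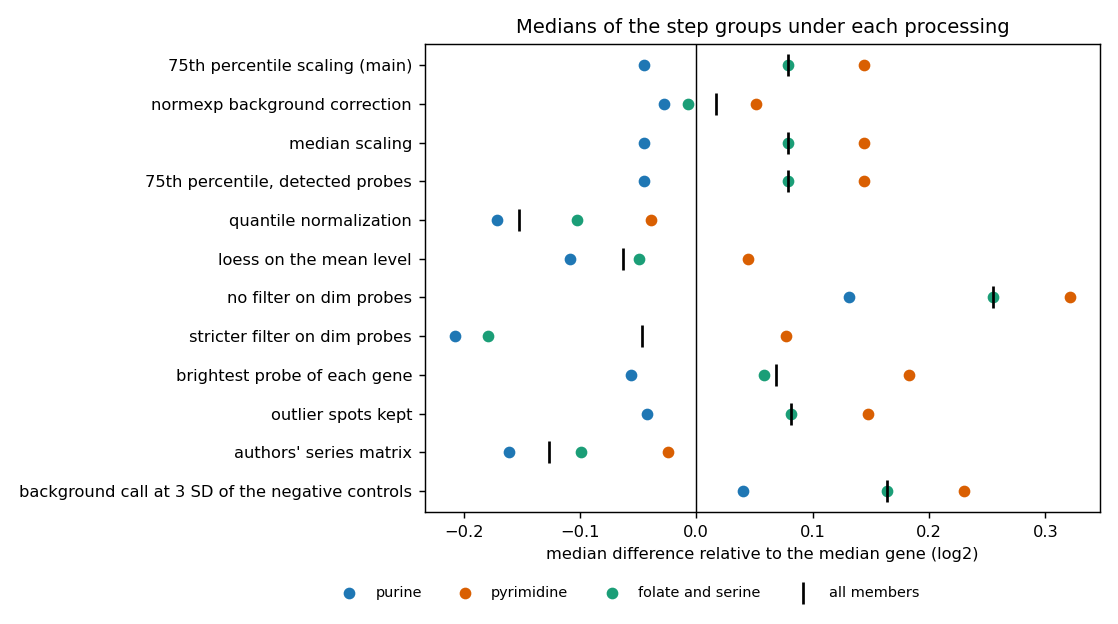
Median difference of the purine, pyrimidine and folate and serine genes relative to the median gene, in log2 units, under the main scaling and 11 alternatives, with the median of all members as a bar. The pyrimidine median lies right of the purine median in every row, and the zero line is crossed by each group in some row.

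Members differed in how far their side depended on the processing. Of 33 members 15 stayed on 1 side of the median gene under every alternative that measured them: Prps1, Atic, Impdh1, Hprt, Ctps, Dut, Mthfd2 and Mthfd2l above it, and Ppat, Pfas, Ctps2, Tyms, Nme2, Shmt1 and Phgdh below it. Of the 11 alternatives, 2 change only the scaling factor and cannot move a value relative to the median gene. For a member with 1 probe printed once, the 2 filters and the brightest-probe rule add only a shift common to all such genes. The same holds for the kept outliers and the negative-control call. Only 4 alternatives moved the gap between Prps1 and Prps2, which have 1 such probe each. For such members a kept side thus follows largely from the size of the main value. All of them reprocess the same 2 arrays, so a kept side is no replicate of a difference. Ctps2 (-0.08) and Mthfd2 (0.10) lay within the spot SD of 0.15, and Shmt1 and Nme2 came as near as -0.05 and -0.06. The other members crossed it in at least 1 alternative, and their signs in the text are those of the main scaling. Of the 12 members with several measured probes, 4 (Gmps, Umps, Shmt1 and Psph) had probes on both sides of the median gene, a share of 33.3%, against 51.1% of the 2394 genes with several measured probes. The median SD between probes of these 12 members was 0.12, against 0.32 over all such genes, a comparison not matched for level.

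The promoters of the members were searched for the letters CACGTG, the palindromic E-box that MYC family proteins are known to bind, since the sample titles carry the name N-myc. In RefSeq windows of GRCm38.p6 that run from 250 bases before to 50 after each gene start, 31 members matched by symbol, and 6 of them held it (Paics, Atic, Impdh2, Tyms, Dtymk and Nme1), or 19.4%, against 8.09% of all 27025 genes with a window and 7.15% of all windows. The members' windows had a median G and C content of 60.8%, against 52.7% over all windows. The 6 genes had a median of 0.05, from -1.03 to 0.43, and the 25 without it a median of 0.08, from -0.47 to 0.62, so members with and without these letters overlapped. The windows of the highest of the 6, of 2 next to the median gene and of the lowest are shown 5′ to 3′ with the E-box in capitals, for Atic at chr1:71556906-71557205 (plus strand), Paics at chr5:76951052-76951351 (plus strand), Impdh2 at chr9:108560186-108560485 (plus strand) and Tyms at chr5:30073576-30073875 (minus strand).
Atic: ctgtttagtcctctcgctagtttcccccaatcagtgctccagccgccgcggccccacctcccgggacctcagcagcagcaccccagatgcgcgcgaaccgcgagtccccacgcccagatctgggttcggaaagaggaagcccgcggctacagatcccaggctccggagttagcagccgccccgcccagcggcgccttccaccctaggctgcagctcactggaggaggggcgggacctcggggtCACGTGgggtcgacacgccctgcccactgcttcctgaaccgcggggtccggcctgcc
Paics: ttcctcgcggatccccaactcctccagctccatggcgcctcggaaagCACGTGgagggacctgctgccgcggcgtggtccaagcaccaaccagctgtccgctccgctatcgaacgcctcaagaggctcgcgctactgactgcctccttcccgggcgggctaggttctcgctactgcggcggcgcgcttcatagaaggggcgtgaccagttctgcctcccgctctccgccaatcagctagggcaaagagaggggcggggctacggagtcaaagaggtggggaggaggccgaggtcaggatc
Impdh2: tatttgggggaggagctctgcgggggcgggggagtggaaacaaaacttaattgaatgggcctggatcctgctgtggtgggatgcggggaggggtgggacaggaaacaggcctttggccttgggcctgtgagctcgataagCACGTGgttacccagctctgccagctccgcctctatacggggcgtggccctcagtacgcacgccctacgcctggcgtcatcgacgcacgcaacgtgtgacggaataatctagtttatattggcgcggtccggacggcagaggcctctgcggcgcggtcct
Tyms: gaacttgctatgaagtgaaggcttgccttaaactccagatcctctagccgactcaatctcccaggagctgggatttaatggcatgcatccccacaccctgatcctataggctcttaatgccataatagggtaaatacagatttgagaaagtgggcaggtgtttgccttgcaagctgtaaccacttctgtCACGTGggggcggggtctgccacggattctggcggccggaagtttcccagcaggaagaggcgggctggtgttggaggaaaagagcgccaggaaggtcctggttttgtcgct
The match is a description of letters and not evidence of binding. Neither array detected Mycn above background. Myc was detected on the SoNar-low array alone, at 25.1 units, which lies under the lowest detected signal of the SoNar-high array (40.8 units), so this gives no difference between the populations.

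Other genes of the same pathways were counted from lists of non-members. Of 21 further genes of the folate and methyl cycles 19 were measured, with a median of 0.20, 12 above and 7 below the median gene, and 0 past 2-fold in either direction. Of 47 further genes of deoxynucleotide supply and salvage 39 were measured. Of the rest, 5 were detected on the SoNar-low array alone and 3 on neither, and the counts leave them out. The largest bound among the 5 was that of Rrm2b, 1.58-fold higher in SoNar-low after scaling. The 39 had a median of 0.08, 25 above and 14 below. Before the median gene was subtracted 2 of them were at least 2-fold higher (background 2.4%) and 0 at least 2-fold lower (4.39%). These were Uck1, a uridine and cytidine kinase (1.29 before and 1.07 after subtraction), and Dguok, the mitochondrial deoxyguanosine kinase (1.14 before and 0.92 after). Each rested on 1 probe; Uck1 passed 2-fold in 9 of 11 alternatives and Dguok in 8 of 10. Relative to the median gene 1 of the 39 was at least 2-fold higher, Uck1 (background 0.665%), and 1 at least 2-fold lower, Dck (7.05%). Dck, a deoxycytidine kinase, gave 270.1 units in SoNar-high and 541 in SoNar-low by its 1 measured probe and lay at -1.02, or -0.80 before subtraction.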

How the data were processed

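The members and lists were chosen with earlier results of these data known. Per the labels' protocols, Cy3-labelled cRNA was made from 1 µg of RNA of each population. Per the file headers, Agilent Feature Extraction 11.0.1.1 produced the deposited spot intensity values, which are background-subtracted and not scaled between arrays (the submitters' processing notes name version 9.1). The authors' series matrix holds log2 values with a median of 5.90 in both columns, ranked like the scanner signals across probes (Spearman's rho 1.000 in both); its centring is not given in the sources used here.

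Control spots and spots flagged as non-uniform or population outliers were left out, repeat spots were averaged on the log2 scale (39085 probes), and each array's 75th percentile was subtracted. Accessions were matched without versions to symbols of a GRCm38 gene table: 27115 probes matched 20618 genes. A gene was measured through probes well above background on both arrays and called at 2-fold, a rule of size with no test; all 33 members are named by rule, and non-members where past 2-fold. The alternatives, fixed with the design, were normexp (offset 50, on median spot signals), 2 other scalings, quantile normalization, loess (span 0.3), 2 filters, the brightest probe, outlier spots kept, the series matrix, a background call at 3 SD of 153 negative controls, and thresholds of 1.5-fold and 3-fold. The gene step was tested on simulated data. The number of arrays, 1 per population, limits the precision. Analyses used Python 3.11.15, numpy 2.4.6, pandas 2.3.3, statsmodels 0.14.6, matplotlib 3.10.9, R 4.3.3 and limma 3.58.1.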

Additional observations from a re-analysis of the deposited data

How the results depend on the processing

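Counts of members past 2-fold moved with the scaling of all genes. Median scaling put the median gene at 0.79 and 10 members at least 2-fold higher (Prps1, Atic, Impdh1, Hprt, Dhodh, Ctps, Tk1, Dut, Nme1 and Mthfd2l), where 32.1% of all genes were. Scaling to the 75th percentile of detected probes put it at -0.07 and 1 member, Tyms, at least 2-fold lower, where 8.11% were. Quantile normalization and the series matrix each put 1 member, Mthfd2l, at least 2-fold higher, where 3.31% and 4.09% were. At 1.5-fold 7 members were higher (background 20.4%) and 1 was lower (10.2%), and at 3-fold 0 passed. In the 7 other alternatives the counts were 0 higher and 0 lower. Relative to the median gene, quantile normalization put the medians of all members, pyrimidine genes, and folate and serine genes at -0.15, -0.039 and -0.10, and the series matrix put them at -0.13, -0.024 and -0.099. With no filter on dim probes the medians of all, purine, pyrimidine, and folate and serine genes were 0.25, 0.13, 0.32 and 0.25, and with the stricter filter, which left out Cad, Tyms, Mthfd2 and Mthfd2l, those of purine and of folate and serine genes were -0.21 and -0.18. Leaving out the most changed member of each list moved every median by less than the spot SD. The cause of these shifts was not tested. Of 359 values of single members under the alternatives, 132 moved by over that SD of 0.15. No paired analysis was possible because each population has 1 array. Dim probes such as those of Mthfd2l, Cad and Tyms have the least signal over background, and the number of arrays limits every value.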

Other observations

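Of 4 genes linked to division and stress signalling that were measured beside the pathway, the sliding clamp gene Pcna lay at 0.34 relative to the median gene, Atf4, a factor known to activate serine synthesis genes, at 0.13, the proliferation marker gene Mki67 at -0.17 and the S-phase factor gene E2f1 at -0.26. The Atf4 value is the mean of 2 probes that disagreed. Its brighter probe gave 21530 units in SoNar-high and 12371 in SoNar-low, a larger difference than the mean shows. Their median was -0.02, with 2 above and 2 below the median gene and none past 2-fold.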
